A study of Mus musculus with 4 samples.

Results

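The genes of the neuromuscular endplate were examined in gastrocnemius muscle. They were 10 genes chosen by name, of 22252 gene names in the files, and all 10 were found in each library. Of these, 5 encode the subunits of the muscle acetylcholine receptor (*Chrna1*, *Chrnb1*, *Chrnd*, *Chrne* and *Chrng*), 4 encode the machinery that clusters it (*Musk*, *Dok7*, *Rapsn* and *Lrp4*), and *Ache* encodes acetylcholinesterase. RNA-seq was available for 4 groups of male mice aged 7 weeks on a C57BL/6J background, each represented by 1 library in which RNA of 3 mice was pooled. All groups were homozygous for the glucocorticoid receptor (GR) allele in which exon 3 of *Nr3c1* is floxed. Lean GRf/f mice carried no Cre and had intact leptin genes (Lep+/+), and lean GRmKO mice carried Cre in addition. The ob/ob GRf/f and ob/ob GRmKO mice had the same 2 genotypes on the leptin-deficient Lepob/ob background. Cre was driven by *Acta1*, the skeletal muscle actin gene, so that GR was deleted in myofibers from development onward, while nerve, Schwann cells and other cells of the muscle kept it. Since only GRmKO mice carried Cre, an effect of Cre itself cannot be told apart from loss of GR. The variation between mice was not measured, so no difference was tested against it.

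At the endplate, acetylcholine from the motor nerve opens the receptor, a ring of 5 subunits, and depolarizes the muscle fiber. The fetal receptor holds the gamma subunit, which the epsilon subunit replaces after birth in innervated muscle. Agrin from the nerve binds LRP4, which activates the kinase MuSK with the help of DOK7, and rapsyn then packs the receptors into a dense cluster. Acetylcholinesterase in the cleft ends the signal. Nuclei beneath the synapse transcribe these genes, whereas electrical activity keeps receptor genes silent along the rest of the fiber. After denervation, myogenic factors such as myogenin act through E-boxes to switch receptor genes on again outside the synapse.

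The stretches before the transcription start are shown first for *Chrna1*, *Chrng*, *Chrne* and *Musk*, because these are the members with a promoter entry in which the E-box CAGCTG was found, and because *Musk* went in the opposite direction from the subunits with loss of GR. Sequences are from RefSeq on GRCm38.p6 and run 5′ to 3′ on the strand of the gene up to the base before the start. Capitals mark CAGCTG and, in *Chrne*, the N-box CCGGAA, the core of a site that ETS-family factors bind in subsynaptic nuclei.
*Chrna1*, minus strand, chr2:73580339-73580438: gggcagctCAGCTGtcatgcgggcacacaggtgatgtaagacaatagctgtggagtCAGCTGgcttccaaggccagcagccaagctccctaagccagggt
*Chrng*, plus strand, chr1:87205651-87205810: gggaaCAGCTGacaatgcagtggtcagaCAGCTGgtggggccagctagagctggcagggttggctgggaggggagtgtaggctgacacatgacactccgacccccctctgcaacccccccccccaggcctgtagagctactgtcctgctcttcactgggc
*Chrne*, minus strand, chr11:70619195-70619344: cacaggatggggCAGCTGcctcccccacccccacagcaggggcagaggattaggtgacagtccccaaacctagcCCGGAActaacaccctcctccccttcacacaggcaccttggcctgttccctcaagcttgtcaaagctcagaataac
*Musk*, plus strand, chr4:58285882-58285961: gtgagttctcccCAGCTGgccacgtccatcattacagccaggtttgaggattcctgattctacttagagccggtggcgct

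A promoter entry was at hand for 7 of the 10 members, and the 250 bases before each start were searched on both strands. The 4 genes printed above held CAGCTG, which 13.0% of all 32851 promoters of the same length also held. *Chrna1* and *Chrng* each held it at 2 places, as did 1.26% of all promoters. In *Chrna1* the copies began 92 and 44 bases before the start, and in *Chrng* 155 and 132 bases before it. *Chrne* and *Musk* had 1 copy each, beginning 138 and 68 bases before the start. The general E-box CANNTG, which includes CAGCTG, was found in 7 of the 7 members and in 66.2% of all promoters. A member counted if any of its starts held the motif, whereas promoters were counted start by start. Start 2 of *Dok7* held no E-box. The N-box was found in *Chrne* alone of the 7, 76 bases before the start, and in 12.03% of all promoters. AGAACA, 1 arm of the GR motif, was found in 0 of the 7 members and in 16.1% of all promoters, which says only that these letters are not in these windows. The RefSeq starts of *Chrng* and *Ache*, and start 2 of *Dok7*, lie well inside the gene as GENCODE draws it. A match of letters is a description of the sequence and was not measured as binding.

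**Figure D1:**
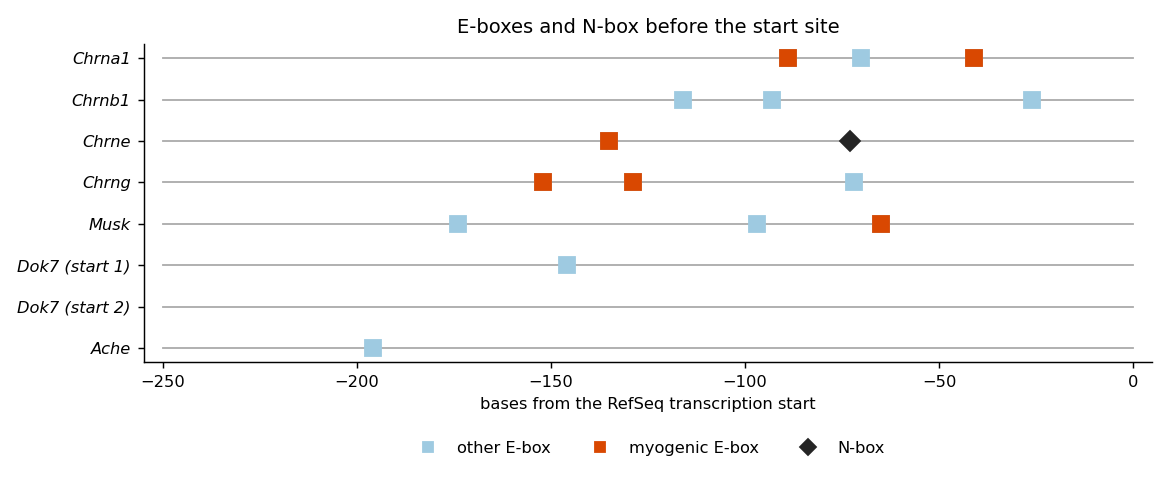
E-boxes and the N-box in the 250 bases before the RefSeq transcription start (x axis, bases) of the 7 members with a promoter entry. Orange squares mark CAGCTG, blue squares other E-boxes CANNTG, and the black diamond the N-box CCGGAA. *Chrna1* and *Chrng* each carry 2 orange squares, and *Dok7* has 2 start sites.

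Depth was between 19897754 and 20959781 expected counts. Levels are given in CPM, counts scaled to the same library total, in which 3 counts amounted to 0.143 to 0.151 CPM. *Nr3c1*, the deleted gene, was at 125 CPM in lean GRf/f, 67.0 CPM in lean GRmKO, 102 CPM in ob/ob GRf/f and 39.1 CPM in ob/ob GRmKO muscle, and was called lower with loss of GR in ob/ob mice only (log2 fold changes of -0.90 and -1.38). Its count covers undeleted exons and does not measure the deletion itself. The genes of fast skeletal muscle were abundant in each library, with *Myh4* between 20868 and 37872 CPM. Changes are given as log2 fold changes of CPM with a 95% exact interval for the ratio of 2 counts, which covers counting error only. A gene was called when it differed by at least 2-fold and reached 50 expected counts in 1 or both libraries compared. *Chrng* stayed under 50 counts throughout and was never eligible, and *Chrnd* was at 49.1 counts in lean GRf/f muscle, so that it was eligible there only through the other library. In these bulk samples, more endplate RNA per fiber and more synaptic nuclei or tissue cannot be told apart.

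With loss of GR in lean mice, 2 of the 9 eligible members were called higher, *Chrna1* and *Ache*, and none was called lower. Of the 11668 genes tested there, 2.19% were called higher and 2.09% lower. With its loss in ob/ob mice, 2 of 9 were called, *Chrna1* and *Chrnd*, both higher. There, 2.08% of 11396 genes were higher by this rule and 2.87% lower. With obesity in GRf/f mice 0 of 9 members were called, where 2.43% of 11601 genes were higher and 4.13% lower. With obesity in GRmKO mice *Chrnd* was called higher, where 1.97% of 11590 genes were higher and 8.08% lower.

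Smaller differences were read against counting error. With loss of GR in lean mice, 7 of the 10 members had an interval above 0 and 2 below it, against 25.2% and 16.9% of the genes tested. In ob/ob mice it was 6 and 2 members, against 20.2% and 29.1%. With obesity in GRf/f mice it was 6 and 1, against 20.2% and 37.5%, and in GRmKO mice 5 and 1, against 17.9% and 47.5%. These shares of genes count those with 50 counts in 1 or both libraries, whereas the 10 members include *Chrng*. The median log2 fold change of the 10 members was 0.50 with loss of GR in lean and 0.41 in ob/ob mice, beside 0.04 and -0.04 over all genes tested. With obesity it was 0.42 in GRf/f and 0.20 in GRmKO mice, beside -0.11 and -0.20 over all genes tested. Each library enters 2 of the 4 comparisons, which are therefore not independent.

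**Figure D2:**
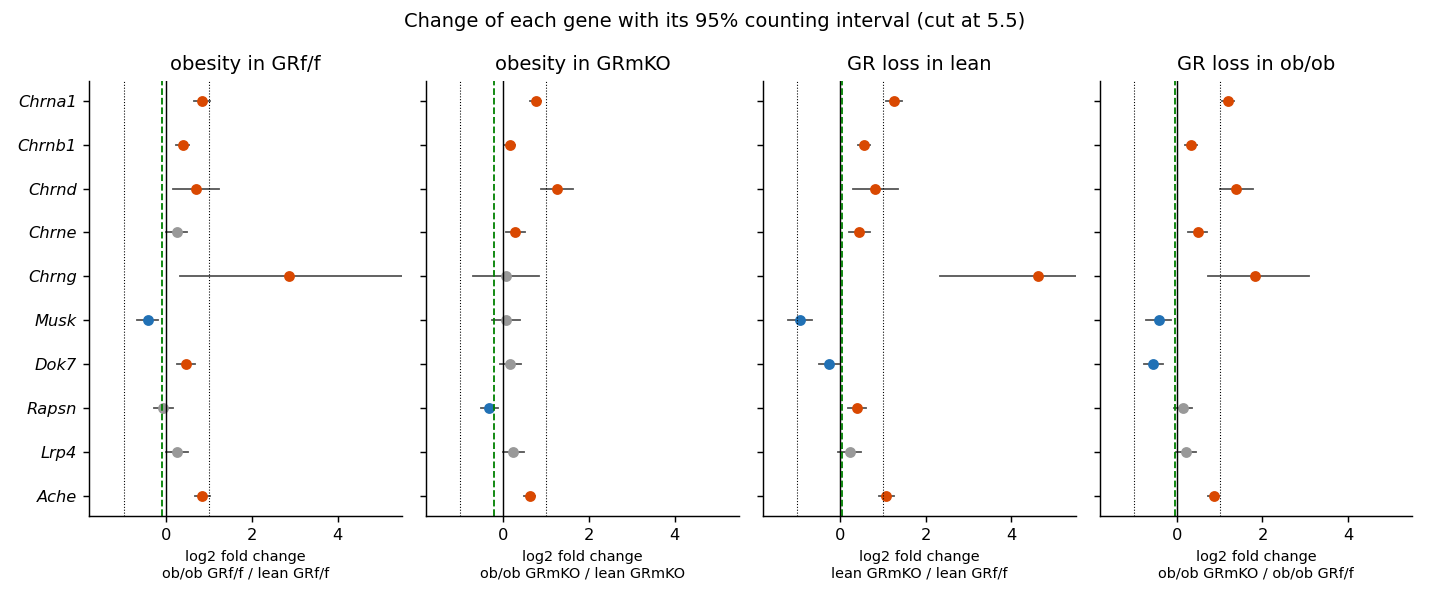
Log2 fold change of CPM (x axis) of each member (y axis) in the 4 comparisons, with 95% counting intervals cut off at 5.5. Orange points have intervals above 0, blue points below 0 and grey points across 0; dotted lines mark 2-fold, and the green dashed line the median of 14206 genes. The 5 subunits lie to the right of 0 in each panel, and *Musk* is left of it in 3.

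Of the 5 receptor subunits, 5 had an interval above 0 with loss of GR in both lean and ob/ob mice. With obesity 4 of 5 did in each genotype, all but *Chrne* in GRf/f and all but *Chrng* in GRmKO mice. *Chrna1* (ENSMUSG00000027107.3, chromosome 2, 73563215 to 73580338) encodes the alpha subunit, which carries the main part of the acetylcholine binding site and is present in the fetal and the adult receptor. It was at 18.4 CPM in lean GRf/f (95% counting interval, 16.6–20.3), 32.5 CPM in ob/ob GRf/f (30.1–35.0), 44.0 CPM in lean GRmKO (41.2–47.0) and 74.3 CPM in ob/ob GRmKO muscle (70.7–78.1). The 4 libraries were thus apart by more than counting error, with lean GRf/f lowest and ob/ob GRmKO highest. Loss of GR came with a log2 fold change of 1.26 in lean mice (1.08 to 1.44) and 1.19 in ob/ob mice (1.06 to 1.33). Of the genes tested, 1.41% and 1.501% had a larger value. With obesity the log2 fold change was 0.82 in GRf/f (0.64 to 1.005) and 0.75 in GRmKO mice (0.64 to 0.88). These were 1.77-fold and 1.69-fold, under the 2-fold limit. Between lean GRf/f and ob/ob GRmKO muscle, *Chrna1* differed by 4.04-fold (3.61 to 4.53).

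*Chrnd* (ENSMUSG00000026251.13, chromosome 1, 87190607 to 87200070) encodes the delta subunit, also part of both receptor forms. Its level was 2.37 CPM in lean GRf/f, 3.79 CPM in ob/ob GRf/f, 4.18 CPM in lean GRmKO and 9.91 CPM in ob/ob GRmKO muscle. The ob/ob GRmKO library stood above the other three, and ob/ob GRf/f and lean GRmKO did not differ beyond counting error. With loss of GR the log2 fold change was 0.82 in lean mice (0.29 to 1.36) and 1.39 in ob/ob mice (1.02 to 1.79). With obesity it was 0.68 in GRf/f (0.14 to 1.22) and 1.25 in GRmKO mice (0.88 to 1.64). *Chrnd* was called higher with loss of GR in ob/ob mice and with obesity in GRmKO mice.

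*Chrnb1* (ENSMUSG00000041189.9, chromosome 11, 69784036 to 69795943), the beta subunit gene, covered a narrower range. It was at 29.9 CPM in lean GRf/f, 38.9 CPM in ob/ob GRf/f, 44.1 CPM in lean GRmKO and 49.01 CPM in ob/ob GRmKO muscle, 1.64-fold from lowest to highest. In CPM, each step in this order was larger than counting error, and no comparison reached 2-fold. The step from ob/ob GRf/f to lean GRmKO was 1.13-fold (1.03 to 1.25). The log2 fold change with loss of GR was 0.56 in lean (0.41 to 0.71) and 0.33 in ob/ob mice (0.20 to 0.47). *Chrne* (ENSMUSG00000014609.16, chromosome 11, 70614883 to 70619216) encodes the adult epsilon subunit. It was at 11.8 CPM in lean GRf/f, 14.0 CPM in ob/ob GRf/f, 16.2 CPM in lean GRmKO and 19.7 CPM in ob/ob GRmKO muscle. The 3 lower libraries formed a series in which neighbors did not differ beyond counting error. Loss of GR gave log2 fold changes of 0.45 (0.20 to 0.69) and 0.49 (0.27 to 0.71) in lean and ob/ob mice. The protein-coding gene *4930544D05Rik* overlaps *Chrne* on the opposite strand, and the strandedness of the reads is not given in the sources used here, so reads in the overlap cannot be told apart.

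*Chrng* (ENSMUSG00000026253.14, chromosome 1, 87204657 to 87212694), the fetal gamma subunit gene, lies 4586 bp downstream of *Chrnd*. It had 1.22 expected counts in lean GRf/f, 8.995 in ob/ob GRf/f, 28.9 in lean GRmKO and 31.9 in ob/ob GRmKO muscle. In CPM these were 0.0590 (0.00122–0.268), 0.429 (0.196–0.815), 1.45 (0.976–2.09) and 1.52 (1.04–2.16). The intervals of both GRmKO libraries lay above those of both GRf/f libraries, and the 2 GRmKO libraries did not differ beyond counting error. The ratio of lean GRmKO to lean GRf/f was 24.6, with a counting interval from 5.02 to 1236 that reflects the single count in the denominator. The ratio of ob/ob GRmKO to ob/ob GRf/f was 3.55 (1.66 to 8.47).

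**Figure D3:**
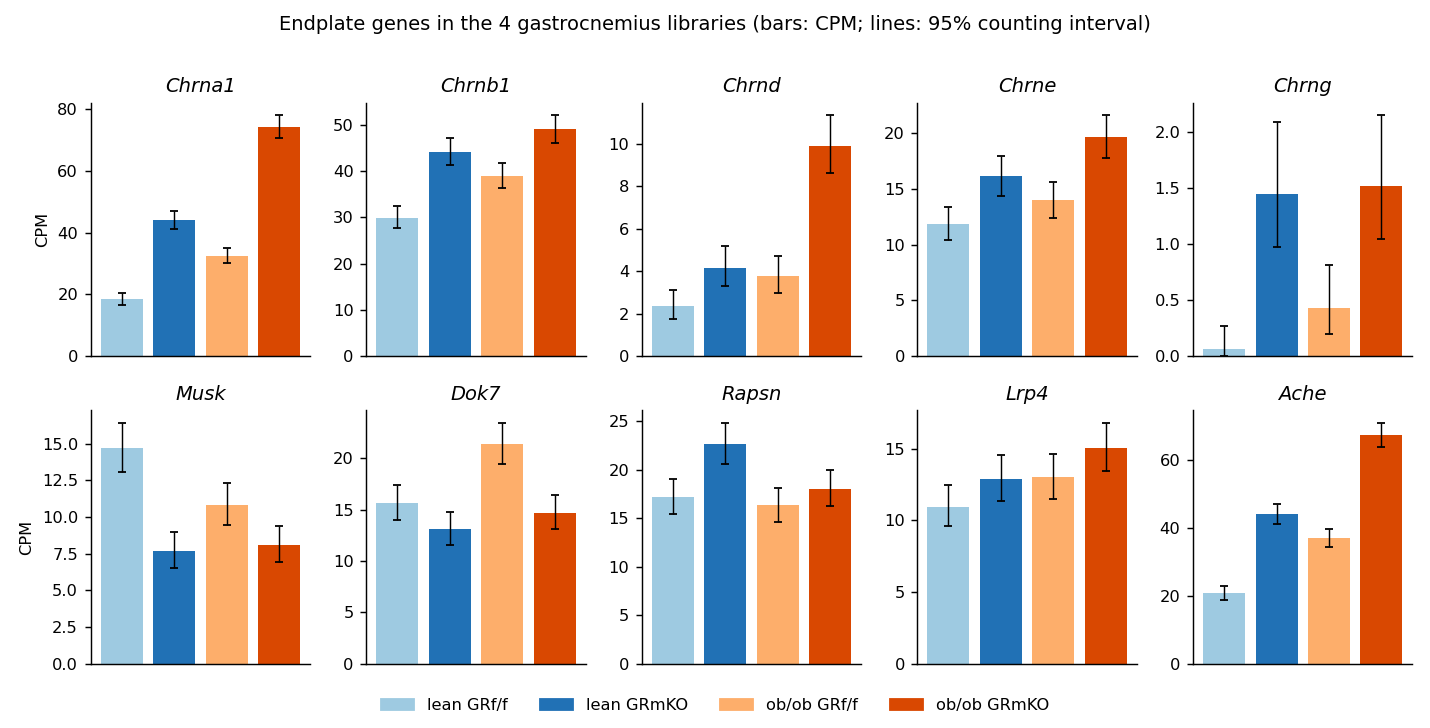
CPM (y axis, from 0, own scale in each panel) of the 10 members in the 4 libraries, with 95% Poisson intervals for counting error. *Chrna1* and *Ache* climb from 18.4 and 20.7 CPM in lean GRf/f to 74.3 and 67.3 CPM in ob/ob GRmKO, and *Musk* is highest in lean GRf/f at 14.7 CPM.

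To compare the fetal with the adult subunit within a library, counts were divided by the length of the listed transcript (2780 bp for *Chrng*, 1591 bp for *Chrne*). The per-length level of *Chrng* was 0.285% of that of *Chrne* in lean GRf/f (0.00587–1.31%) and 1.76% in ob/ob GRf/f muscle (0.796–3.38%). It was 5.14% in lean GRmKO (3.41–7.57%) and 4.44% in ob/ob GRmKO muscle (3.00–6.37%). The epsilon transcript thus exceeded the gamma transcript in each library, by 19.4-fold where the gap was smallest. The relative level of *Chrng* was higher in lean GRmKO than in either GRf/f library beyond counting error. The intervals of ob/ob GRf/f and ob/ob GRmKO overlapped from 3.00% to 3.38%. Such an overlap does not show that these libraries agree within counting error, and no interval was computed for the ratio between them. These ratios do not depend on scaling between libraries.

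The composition of the 5 subunit transcripts also differed. Per length, *Chrna1* made up 15.9% of their sum in lean GRf/f, 20.7% in ob/ob GRf/f, 23.6% in lean GRmKO and 30.3% in ob/ob GRmKO muscle. *Chrnb1* had the largest share in each library, from 52.7% in lean GRf/f to 40.6% in ob/ob GRmKO muscle. The share of *Chrne* went from 28.3% to 22.1% in the same 2 libraries, and that of *Chrnd* from 3.07% to 6.05%. The assembled receptor holds 2 alpha subunits and 1 of each other kind, a ratio that the transcript levels did not mirror in any library. The summed per-length level of the 5 genes was 26.3 CPM per kb in lean GRf/f, 35.7 in ob/ob GRf/f, 42.6 in lean GRmKO and 56.0 in ob/ob GRmKO muscle.

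**Figure D4:**
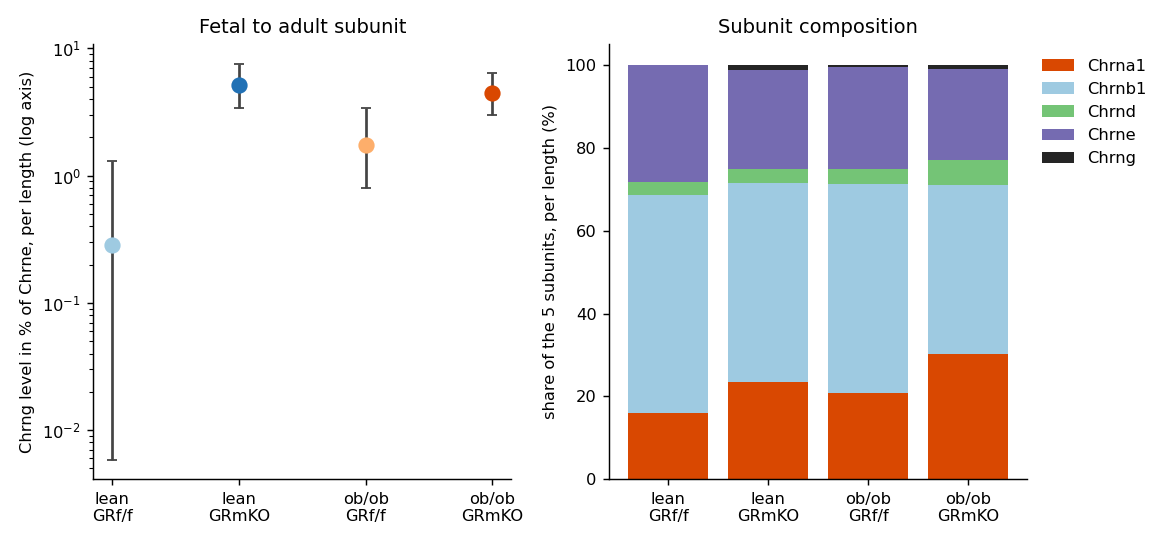
Left, *Chrng* level in percent of the *Chrne* level per transcript length (log y axis) in each library, with 95% counting intervals, from 0.285% in lean GRf/f to 5.14% in lean GRmKO. Right, share of each subunit gene in the per-length sum of the 5 (y axis, percent), in which *Chrna1* goes from 15.9% to 30.3%.

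*Ache* (ENSMUSG00000023328.14, chromosome 5, 137287519 to 137294466) followed the same order of libraries as *Chrna1*. It was at 20.7 CPM in lean GRf/f (18.8–22.8), 37.0 CPM in ob/ob GRf/f (34.4–39.7), 43.9 CPM in lean GRmKO (41.0–46.9) and 67.3 CPM in ob/ob GRmKO muscle (63.8–70.9). In CPM, no neighboring libraries in this order agreed within counting error. The step from ob/ob GRf/f to lean GRmKO was the smallest, at 1.19-fold (1.08 to 1.31). The log2 fold change with loss of GR was 1.08 in lean (0.91 to 1.25) and 0.86 in ob/ob mice (0.74 to 0.99), and only the former was called. With obesity it was 0.83 in GRf/f (0.66 to 1.01) and 0.62 in GRmKO mice (0.49 to 0.74). A long noncoding RNA gene, *Gm42456*, overlaps the start of *Ache* on the opposite strand.

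Of 2 anchors of the enzyme, *Colq* had the same order of libraries in CPM as *Ache* and *Prima1* another. No counting interval was computed for *Colq*, so the order of its upper libraries, which lay close together, is not established. *Colq*, whose collagen tail fixes acetylcholinesterase in the synaptic basal lamina, was at 5.18 CPM in lean GRf/f, 10.8 CPM in ob/ob GRf/f, 13.0 CPM in lean GRmKO and 13.9 CPM in ob/ob GRmKO muscle. It was called higher with loss of GR in lean mice (log2 fold change, 1.33) and with obesity in GRf/f mice (1.06). With obesity in GRmKO mice *Colq* changed by 0.10 and with loss of GR in ob/ob mice by 0.37, beside 0.62 and 0.86 for *Ache*. *Prima1*, a membrane anchor of the enzyme known mainly from brain, was at 2.69 CPM in lean GRf/f, 4.92 CPM in ob/ob GRf/f, 0.297 CPM in lean GRmKO and 0.676 CPM in ob/ob GRmKO muscle. It was called lower with loss of GR in both backgrounds. Its log2 fold change was -3.18 in lean (-4.67 to -1.95) and -2.86 in ob/ob mice (-3.80 to -2.07). It was eligible only through the GRf/f libraries, with 55.9 and 103 expected counts, since the GRmKO libraries held 5.90 and 14.2. *Bche*, which encodes the related butyrylcholinesterase, was called in none of the 4 comparisons.

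None of the 4 clustering genes was called, and each had its own order of libraries. Their ranges from lowest to highest library were 1.91-fold for *Musk*, 1.63-fold for *Dok7*, 1.39-fold for *Rapsn* and 1.37-fold for *Lrp4*. *Musk* (ENSMUSG00000057280.15, chromosome 4, 58285960 to 58374303) was at 14.7 CPM in lean GRf/f (13.1–16.4), 10.8 CPM in ob/ob GRf/f (9.47–12.3), 7.68 CPM in lean GRmKO (6.52–9.01) and 8.08 CPM in ob/ob GRmKO muscle (6.90–9.38). It was lower in both GRmKO libraries than in both GRf/f libraries, and the GRmKO libraries did not differ beyond counting error. Loss of GR came with a log2 fold change of -0.93 in lean mice (-1.22 to -0.65), just short of 2-fold, and of -0.42 in ob/ob mice (-0.72 to -0.13). Of the genes tested, 97.7% had a higher value than *Musk* in lean and 84.7% in ob/ob mice. With obesity, *Musk* was at -0.44 in GRf/f (-0.69 to -0.19) and 0.07 in GRmKO mice (-0.25 to 0.39). The difference between these was 0.51 (0.11 to 0.91), beyond counting error but not tested against the variation between mice.

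*Dok7* (ENSMUSG00000044716.12, chromosome 5, 35056766 to 35087839), which encodes the cytoplasmic activator of MuSK, was highest in ob/ob GRf/f muscle. Its levels were 15.6 CPM in lean GRf/f, 21.4 CPM in ob/ob GRf/f, 13.1 CPM in lean GRmKO and 14.7 CPM in ob/ob GRmKO muscle. With loss of GR its log2 fold change was -0.25 in lean (-0.49 to -0.01) and -0.54 in ob/ob mice (-0.76 to -0.33), so that it went the same way as *Musk*. *Rapsn* (ENSMUSG00000002104.11, chromosome 2, 91035620 to 91045729), the gene of the receptor-packing scaffold rapsyn, lay between 16.3 CPM in ob/ob GRf/f and 22.7 CPM in lean GRmKO muscle. Only lean GRmKO stood apart from the other libraries beyond counting error. *Rapsn* overlaps the processed transcript *Gm13778* on the opposite strand. *Lrp4* (ENSMUSG00000027253.15, chromosome 2, 91457511 to 91513779), the agrin receptor gene, was at 10.97 CPM in lean GRf/f, 12.9 CPM in lean GRmKO, 13.0 CPM in ob/ob GRf/f and 15.1 CPM in ob/ob GRmKO muscle. No neighbors in this order differed beyond counting error, and the 2 ends differed by 1.37-fold (1.15 to 1.64). Across the libraries the summed level of the 4 clustering genes stayed between 55.9 and 61.6 CPM. That of the 5 subunits went from 62.6 CPM in lean GRf/f to 154 CPM in ob/ob GRmKO muscle.

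A pattern seen only after the values were known was that 6 members, the 5 subunits and *Ache*, were ranked in the order lean GRf/f, ob/ob GRf/f, lean GRmKO and ob/ob GRmKO. The same order was found for 3.49% of the 11865 genes that reached 50 counts in 1 or more libraries, and *Chrng* was not among those eligible. With edgeR's TMM or DESeq2 factors, 5 members kept it, since *Chrnd* was then no longer higher in lean GRmKO than in ob/ob GRf/f muscle. Both factors also shrink this step for the other members. In CPM it was 1.13-fold for *Chrnb1* (1.03 to 1.25) and 1.19-fold for *Ache* (1.08 to 1.31). No counting interval of a step was computed with these factors, so this step is not established for *Chrnb1* and *Ache* outside CPM. With only the lowest and the highest library fixed, *Lrp4* joined them as the last of 7 members, against 8.09% of the 11865 genes. The difference of the obesity effect between genotypes (GRmKO minus GRf/f) was -0.07 for *Chrna1* (-0.28 to 0.15), 0.04 for *Chrne* (-0.28 to 0.36) and 0.57 for *Chrnd* (-0.06 to 1.2). It was -0.22 for both *Chrnb1* (-0.42 to -0.03) and *Ache* (-0.43 to -0.01). These differences depended on the scaling, chosen for comparison after the values were seen. With TMM factors they were -0.13 for *Chrnb1* (-0.33 to 0.07) and -0.12 for *Ache* (-0.33 to 0.09), whose intervals hold 0, and 0.66 for *Chrnd* (0.03 to 1.29), whose interval no longer does. For *Musk* the difference was 0.60 with TMM factors (0.20 to 1.01).

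**Figure D5:**
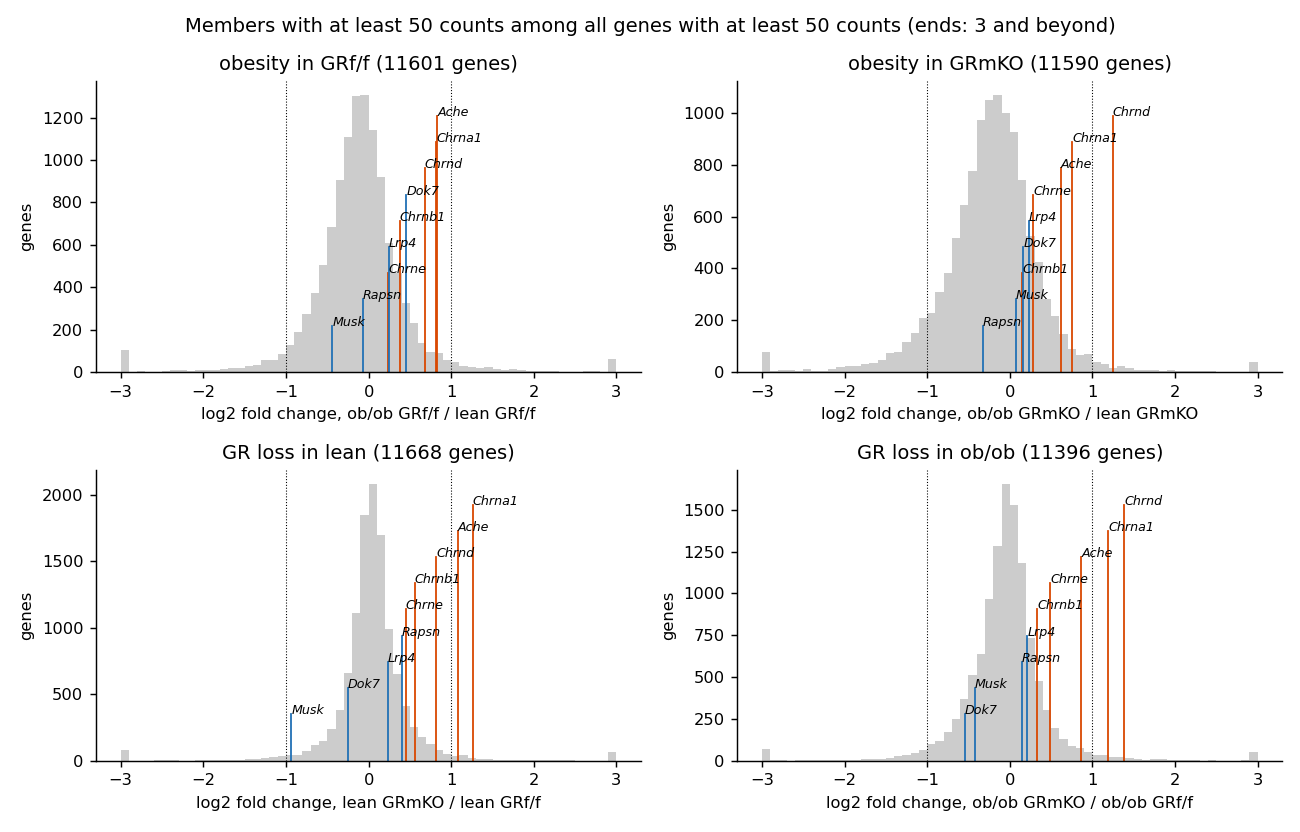
Histograms of the log2 fold change (x axis) of all genes that reached 50 counts in 1 or both libraries compared (y axis, number of genes), with the 9 eligible members drawn as lines whose height only spaces the names. Orange lines are subunits and *Ache*, blue lines clustering genes, and dotted lines mark 2-fold; *Chrna1* and *Ache* pass it in lean and *Chrna1* and *Chrnd* in ob/ob mice with loss of GR.

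CPM of the ob/ob libraries were shifted as a whole, and the median of the 14206 genes found in all libraries was -0.11 in GRf/f and -0.21 in GRmKO mice with obesity. Relative to this median, *Chrna1* changed by 0.93 and 0.96, *Ache* by 0.95 and 0.82, and *Musk* by -0.32 and 0.28 in GRf/f and GRmKO mice. *Rapsn* was at -0.07 with obesity in GRf/f mice, and its sign turned with TMM (0.04). Of the genes called with obesity in GRmKO mice, 19.6% were higher in CPM and 38.9% with TMM. With loss of GR, the median gene was at 0.05 in lean and -0.04 in ob/ob mice.

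Other genes of the endplate were taken from lists. Of 13 genes of synaptic ligands and the basal lamina, 11 were eligible in each comparison, and *Colq* was the only one called. *Agrn*, the gene of agrin, was at 12.1 CPM in lean GRf/f, 18.6 CPM in lean GRmKO, 13.9 CPM in ob/ob GRf/f and 13.0 CPM in ob/ob GRmKO muscle. Among 19 signaling partners of MuSK, *Pak1*, a kinase of the cytoskeleton, was called higher with loss of GR in ob/ob mice (log2 fold change, 2.05). *Src*, a kinase that acts on the receptor downstream of MuSK, was listed at 0 in lean GRmKO and between 3.54 and 6.91 CPM in the other libraries. It was thus called lower with loss of GR in lean and higher with obesity in GRmKO mice. Both calls rested on that 0, and *Src* was eligible only through the other library of each pair. Of 16 genes of the postsynaptic scaffold, *Sntb1*, a syntrophin gene, was called lower with loss of GR in ob/ob mice (-1.41) and higher with obesity in GRf/f mice (1.004). Among 8 genes of synaptic transcription, *Gabpb1*, which encodes a partner of the N-box factor GABP alpha, was called higher with loss of GR in lean mice (1.31). *Etv4*, an ETS-family gene, was called higher with obesity in GRmKO mice (1.30). It was at 1.72 CPM in lean GRmKO and 4.23 CPM in ob/ob GRmKO muscle, and was eligible only through the latter. The 5 channel genes of the fiber membrane were called in no comparison. Of 11 neuronal nicotinic subunit genes none was above 2.87 CPM, and their summed level was between 3.57 and 4.92 CPM.

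Of 16 regulators and markers of muscle activity, 14 were eligible in each comparison, and 1 or 2 were called higher in each. *Myog*, the gene of myogenin, was at 6.17 CPM in lean GRf/f, 7.52 CPM in ob/ob GRf/f, 13.6 CPM in lean GRmKO and 21.1 CPM in ob/ob GRmKO muscle, and was called higher with loss of GR in both backgrounds (1.14 and 1.49). *Ncam1*, an adhesion gene that spreads along denervated fibers, was called higher with obesity in both genotypes (1.11 and 1.29). *Cdkn1a*, a cell cycle inhibitor gene, was called higher with obesity in GRmKO mice (1.09).

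The pattern nearest to that of *Chrna1* was found in *Arhgap24*, *Cdh4* and *Ache*, in this order, among the 10486 genes that reached 50 counts in all 4 libraries. The distances were 0.21, 0.22 and 0.27 log2 units, over log2 CPM centered on the mean of 4 libraries. *Arhgap24* was at 6.29, 9.95, 14.1 and 20.8 CPM, and *Cdh4* at 13.0, 18.7, 29.8 and 49.7 CPM in lean GRf/f, ob/ob GRf/f, lean GRmKO and ob/ob GRmKO muscle. *Chrnb1* and *Chrne* came at ranks 183 and 164 of the same list, since their ranges were narrower.

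Markers of other cells and fiber types are given beside these results. The 10 Schwann cell markers summed to 513 CPM in lean GRf/f, 713 CPM in ob/ob GRf/f, 649 CPM in lean GRmKO and 610 CPM in ob/ob GRmKO muscle. Their median log2 fold change was 0.35 with loss of GR in lean mice, -0.24 with its loss in ob/ob mice, and 0.48 with obesity in GRf/f and -0.21 in GRmKO mice. Of 8 motor axon genes, *Chat* and *Slc18a3* were listed at 0 in all 4 libraries, and the sum was between 1.13 and 3.52 CPM. The 6 satellite cell markers summed to between 82.9 and 96.3 CPM. Slow fiber genes differed more, with sums over 9 genes of 519 CPM in lean GRf/f, 1152 CPM in ob/ob GRf/f, 692 CPM in lean GRmKO and 1646 CPM in ob/ob GRmKO muscle. Their median log2 fold change was 1.29 with obesity in both genotypes, and 6 of 9 were called higher in GRf/f and 7 of 9 in GRmKO mice. It was 0.43 with loss of GR in lean and 0.50 in ob/ob mice, where 1 of 9 was called higher in each. The 9 fast fiber genes summed to between 87538 and 109777 CPM. Sums were between 2681 and 5133 CPM for 4 fibroblast, 286 and 475 CPM for 4 endothelial, 77.5 and 202 CPM for 4 macrophage, 92.4 and 231 CPM for 4 adipocyte, and 872 and 2228 CPM for 5 erythroid genes. Adipocyte genes were lower in GRmKO libraries, macrophage genes were lowest in ob/ob GRmKO, and erythroid genes were lower in both ob/ob libraries. The part of these cells in the changes of the endplate genes was not tested.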

How the data were processed

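RNA-seq of gastrocnemius muscle from 4 groups was analyzed, with 1 library per group from the pooled RNA of 3 mice. The authors ran Salmon v1.2.1 on paired-end reads against the protein-coding transcripts of GENCODE, and imported the output to R v3.5.0 with tximport (lengthScaledTPM). A gene name that occurred more than once was kept once, with its highest total. The deposited files give expected counts per gene name, not normalized between libraries, and the labels name mm10.

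Counts were scaled to CPM over all 22252 gene names. The study called genes with NOISeq from simulated replicates, which was replaced by a fold rule of at least 2-fold and 50 expected counts in 1 or both libraries compared. No p-value was computed. Intervals were exact (Poisson for 1 library, Clopper-Pearson for ratios) on rounded counts at 95%, with scipy 1.17.1 in Python 3.11.15, and cover counting error only. Intervals for the difference of 2 changes used a normal approximation on the log scale. edgeR 4.0.16 and DESeq2 1.42.0 (R 4.3.3) gave scaling factors of rounded counts only. Positions and lengths were from GENCODE M21 (GRCm38), in which all 22252 listed transcripts were found. The 50 bases after the start in the RefSeq promoter entries were found in a GENCODE transcript of the gene for 6 of 8 entries. The others were *Ache* and start 2 of *Dok7*.

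Members and lists were chosen with earlier results of these data known. The text names all 10 members, *Nr3c1*, at most 3 genes of each list (most comparisons called, then largest change) and the 3 patterns nearest to *Chrna1*, which also had the widest range among members with 50 counts in each library. Some list genes are not reported here.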

Additional observations from a re-analysis of the deposited data

How the results depend on the processing

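No paired analysis was possible because each group has 1 library, and no library could be left out. Of 200 log2 fold changes of members under 5 other scalings, 189 stayed within the counting interval of the CPM value, 11 moved beyond it, and no called member turned its sign. All 11 were of obesity in GRmKO mice, in *Chrna1*, *Chrnb1*, *Ache* and *Rapsn*. With TMM factors *Chrna1* went there from 0.75 to 0.96 and *Ache* from 0.62 to 0.82. *Rapsn*, not called, was at -0.07 with obesity in GRf/f mice and at 0.04 with DESeq2 and TMM factors and 0.02 with upper quartile scaling. The members called were the same genes under the 5 scalings. With obesity, the share of calls that were higher moved from 37.1% in GRf/f and 19.6% in GRmKO mice to 47.0% and 39.9% with DESeq2 factors. At 1.5-fold, 3 of the 9 eligible members were called with obesity in GRf/f and 3 in GRmKO mice (*Chrna1*, *Chrnd* and *Ache*, all higher). With loss of GR, 4 were called in lean mice (the same 3 and *Musk*, lower) and 3 in ob/ob mice (the same 3, higher). Of all genes tested, 2179 of 11601 and 3072 of 11590 were called at 1.5-fold with obesity in GRf/f and GRmKO mice. For loss of GR it was 1258 of 11668 in lean and 1632 of 11396 in ob/ob mice. With no minimum count, *Chrng* made 1 member called with obesity in GRf/f mice. It also became the last of 3 members called higher with loss of GR in lean and in ob/ob mice, both with no minimum and with a minimum of 10 counts. Calls among all genes depended on the minimum and the fold, as these settings test other genes or a lower limit. With at least 10 counts they were 1858 and 2076 for obesity in GRf/f and GRmKO mice, and 1441 and 1252 for loss of GR in lean and ob/ob mice. With no minimum they were 4557, 4442, 4190 and 3479, in the same order. Without division by transcript length, *Chrng* was at 8.99% of *Chrne* in lean GRmKO and 7.76% in ob/ob GRmKO muscle. The order of the 6 members, for which other scalings were tried after the values had been seen, held for 5 with TMM or DESeq2 factors and for 6 with upper quartile scaling. The depth limits *Chrng* most, with a single count in lean GRf/f muscle.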
